A study of Mus musculus with 30 samples.

Results

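The comparison described here is that of mouse fibroblasts transfected with a plasmid for the transcription factor Snai1 with the same cells transfected with a control plasmid, 3 libraries a side. These 6 libraries were chosen by their labels, out of 30 in the series. The cells were NIH3T3-CG, a derivative of NIH3T3, an established line of fibroblasts from mouse embryos. What the suffix stands for is not stated. The labels give each group only as transfected with Snai1 or with control. They name no time after transfection, no plasmid backbone, no sorting of transfected cells and no Hedgehog ligand, although the series title concerns variability of Hedgehog signalling between cells. The 3 control libraries were shared with a Prrx1 transfection of 3 libraries, which entered the same fit and is used below as a second reference. Total RNA was extracted from the cells and sequenced as bulk mRNA, so fewer cells expressing a gene and less RNA per cell cannot be told apart. Nothing says that the replicates came from separate cultures, and p-values therefore measure only the spread between these libraries.

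Snai1 is a zinc finger repressor of the Snail family. It binds E-box sequences of the form CAGGTG through its zinc fingers, and its amino-terminal SNAG domain brings in corepressors such as the Sin3a and histone deacetylase complex, the demethylase Kdm1a with Rcor1, and Polycomb complex 2. It is best known for shutting off E-cadherin (Cdh1) and other junction genes during epithelial to mesenchymal transition, and TGF-beta signalling is a classic inducer of the Snai1 gene. Fibroblasts are mesenchymal cells and express few of the epithelial genes that Snai1 is known to repress.

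Depth was 18169803 to 20961571 estimated counts per library. The fibroblast markers summed to 19920.0 to 21280.0 CPM in control and 20130.0 to 22280.0 CPM in Snai1 libraries. CPM are counts scaled to library size, here with TMM factors. Sums of other marker lists were far lower but not 0. Neural markers had 15.1 to 17.7 CPM in control and 13.6 to 19.9 CPM in Snai1 libraries. Immune markers had 13.28 to 16.25 and 12.7 to 15.18 CPM, and muscle markers 4.54 to 5.65 and 4.85 to 5.52 CPM. Single members had 0 counts in all 6: the neuronal gene Rbfox3, the immune gene Tyrobp and the muscle gene Myog. The epithelial gene Epcam had 0 counts as well, whereas the junction gene Jup stood at 61, 51.5 and 55.2 CPM in control. Control replicate 1 stood apart: it lay outside the range of the other 5 libraries for 50.3% of genes (26.2% above, 24.1% below), against 22.8 to 43.9% for each of the others. Its distance (root mean square of the log2 CPM differences) was 0.478 from control replicate 2 and 0.462 from control replicate 3, which were 0.347 from each other. Results are given with and without it where it decides them.

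Snai1 itself (chromosome 2, 167538195 to 167542814, plus strand, mm10) was measured first. It stood at 92.3, 85.7 and 88.1 CPM in the control libraries and at 10674, 10439 and 11524 CPM in the Snai1 libraries, a 123-fold rise (log2 fold change 6.94, SE 0.13, adjusted p = 2.37e-12, edgeR quasi-likelihood test with Benjamini-Hochberg adjustment, n = 3 per group). The groups were far apart, and every library matched its label. The Prrx1 libraries held 75.9, 80.6 and 56.4 CPM of Snai1. The fluorescent protein mScarlet, whose sequence was among the quantified targets, did not separate the groups, at 37207, 28579 and 30667 TPM (the abundance unit of kallisto, scaled for length) in control and 29395, 28118 and 31222 TPM in Snai1 libraries (exact permutation p = 0.6, two-sided). GFP, the other added target, was higher with Snai1 (217, 185 and 185 against 261, 252 and 271 CPM, log2 fold change 0.42, SE 0.071, adjusted p = 0.0113, edgeR). GFP was not high with Snai1 alone: the Prrx1 libraries held 279, 279 and 297 CPM. In control plasmid libraries of other experiments of the series it stood at an unscaled 291 to 304 CPM (shared by Egr1 and Jun) and 185 to 199 CPM (Srebf2). The Snai1 libraries held an unscaled 251 to 270 CPM. The labels do not say where either reporter sits. GFP kept its call in 3 of 6 fits that each left out 1 library, losing it without control replicate 3, Snai1 replicate 1 or Snai1 replicate 3 (adjusted p = 0.0695, 0.0592 and 0.0915).

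The test called 212 of 13110 genes, of which 149 were higher and 63 lower with Snai1, and the share called was 1.62% (1.14% higher, 0.481% lower). Snai1 is counted among the 149. At an unadjusted p under 0.05, 1215 genes were up (9.27%) and 918 down (7%), and DESeq2 called 356 up (2.72%) and 187 down (1.43%). Without control replicate 1, 12.4% of 13400 tested genes were called higher and 10.4% lower. The counts for gene lists below are to be read against the shares of the same setting. Most changes with all 3 controls were small: 14 genes rose and 8 fell by over 2-fold, and the median size among the called was 0.51 on the log2 scale. Of the 212 genes, 183 code for protein and 28 are annotated as pseudogenes. For 108 of them fewer than 90% of their 31-base words are unique to the gene, so that reads may have been shared with near-identical copies. Of all 13110 tested genes, 2911 were under 90% and 471 are annotated as pseudogenes, so both kinds made up a larger part of the called genes. Only 24 of the 149 and 16 of the 63 kept their call in each of the 6 fits that left out 1 library. The count ran from 46 without Snai1 replicate 3 to 94 without control replicate 2, and rose to 3062 without control replicate 1. It was 58 and 78 without Snai1 replicates 1 and 2, and 57 without control replicate 3. With a correction for transcript length and GC content, chosen after seeing the data, 694 genes were called (5.29%), 359 higher (2.74%) and 335 lower (2.56%). Without regard to any test, the 3 Snai1 libraries did not overlap the 3 controls in 20.5% of tested genes (10.4% higher, 10.2% lower).

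**Figure D1:**
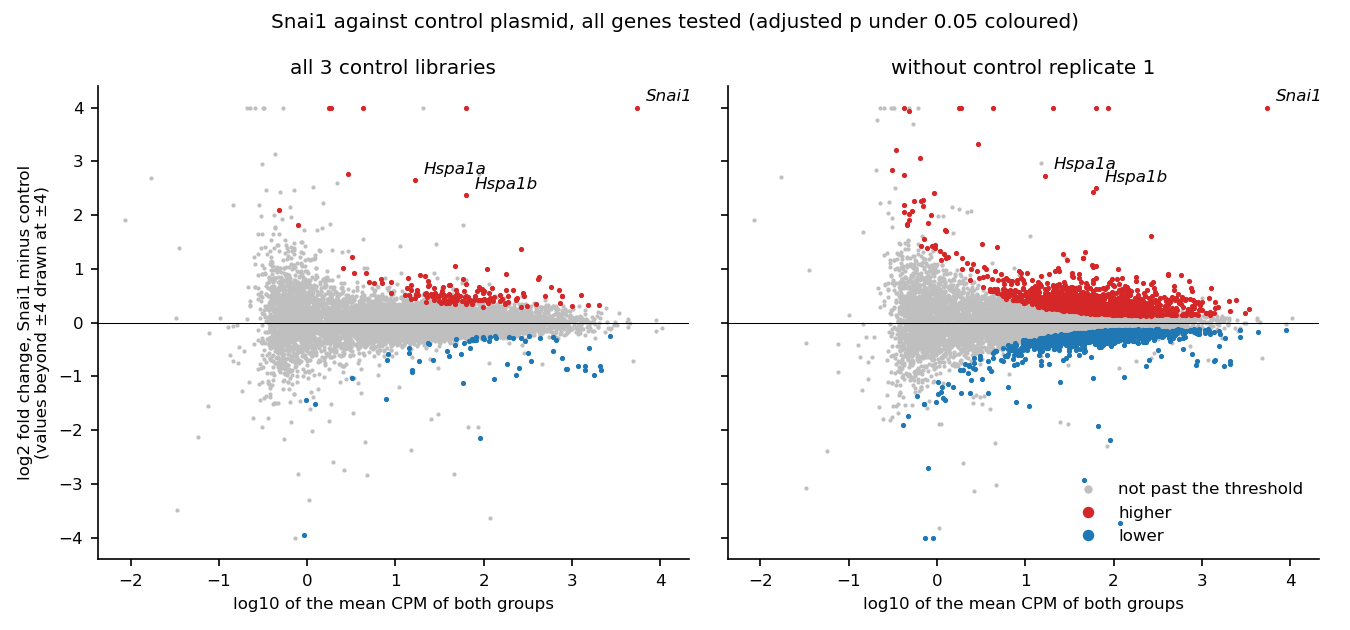
Log2 fold change of Snai1 minus control (vertical axis) against the log10 of the mean CPM (horizontal axis) for all tested genes, with all 3 controls (left) and without control replicate 1 (right). Red and blue points passed an adjusted p of 0.05 and values beyond 4 are drawn at 4. Snai1, Hspa1a and Hspa1b are labelled, Snai1 at the upper limit of the axis together with a few genes of low or no control counts, and the called genes go from 212 on the left to 3062 on the right, most of them close to 0.

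The largest rises after Snai1 among the genes that met the naming rule (protein-coding, at least 5 CPM, no predicted name) were those of the inducible Hsp70 pair. Hspa1a (chromosome 17, 34969190 to 34972156, minus strand) and Hspa1b (chromosome 17, 34956436 to 34959238, minus strand) are neighbouring, nearly identical genes without introns that encode the stress-induced cytosolic chaperone Hsp70, which refolds damaged proteins, and heat shock factor drives them through repeats of GAA and TTC. Their RefSeq promoter windows (250 bases before to 50 after the start, GRCm38.p6, minus strand) are shown because these genes rose most under that rule, with the one GAANNTTC match in each in capitals.
Hspa1a: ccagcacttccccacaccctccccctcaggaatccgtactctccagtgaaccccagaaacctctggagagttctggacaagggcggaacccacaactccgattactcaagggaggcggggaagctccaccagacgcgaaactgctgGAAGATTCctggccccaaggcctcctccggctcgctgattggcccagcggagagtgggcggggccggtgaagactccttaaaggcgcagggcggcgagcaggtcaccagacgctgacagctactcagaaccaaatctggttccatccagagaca
Hspa1b: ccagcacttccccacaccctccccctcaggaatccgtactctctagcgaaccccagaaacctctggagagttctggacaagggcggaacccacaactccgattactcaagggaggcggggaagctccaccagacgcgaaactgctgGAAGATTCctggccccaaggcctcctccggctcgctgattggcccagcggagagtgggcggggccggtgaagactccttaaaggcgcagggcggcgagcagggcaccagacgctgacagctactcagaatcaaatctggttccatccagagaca
The windows lie at chr17:34972107-34972406 and chr17:34959189-34959488 and are identical at 296 of 300 bases. The match begins 104 bases before the start in both. GAANNTTC reads the same on both strands and occurs in 7.86% of all 32851 promoter windows, and neither window holds CAGGTG or its reverse complement CACCTG, which 20.2% of windows do. A match is a description of the letters and no evidence of binding.

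Hspa1a stood at 5.11, 3.99 and 4.68 CPM in control and 30.1, 30.1 and 26.4 CPM in Snai1 libraries, 6.29-fold higher (log2 fold change 2.65, SE 0.11, adjusted p = 1.88e-08, edgeR). Hspa1b went from 24.5, 19.4 and 18.1 to 104, 106 and 109 CPM, 5.15-fold higher (log2 fold change 2.36, SE 0.12, adjusted p = 1.36e-07, edgeR). Only 29.9% and 31.9% of their 31-base words are unique, so the split between them is uncertain, and their sum is the safer value. That sum was 29.6, 23.4 and 22.7 CPM in control, 134, 136 and 136 CPM in Snai1 and 29.8, 26.5 and 33.7 CPM in Prrx1 libraries. The Snai1 libraries lay within 2 CPM of each other and apart from both other groups. In the other transfections of the series, run with their own controls, the sum (unscaled CPM) lay between 27.2 and 58.9 CPM in all 15 libraries, below every Snai1 library. Both calls held in each of the 6 fits that left out 1 library.

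Few other chaperone genes passed the test. Of 33 tested heat shock genes, 4 rose, 0 fell and 29 did not pass, with a median log2 fold change of −0.0034 against 0.0024 over all genes tested. Without control replicate 1 the counts were 8 higher and 5 lower (12.4% and 10.4% over all genes tested). With the length and GC correction they were 5 and 3 (2.74% and 2.56% over all). Apart from the Hsp70 pair, those that rose were Dnajb1, the Hsp40 partner of Hsp70 (56.6, 54.7 and 55.8 against 77.3, 76.4 and 78.5 CPM, log2 fold change 0.47, SE 0.075, adjusted p = 0.00821, edgeR), and Hspe1, the mitochondrial cochaperonin Hsp10 (215, 183 and 189 against 269, 267 and 254 CPM, log2 fold change 0.43, SE 0.07, adjusted p = 0.00947, edgeR, 69.5% unique). Neither gene's groups overlapped. Dnajb1 lost its call without Snai1 replicate 3 (adjusted p = 0.0673), and Hspe1 without control replicate 3, Snai1 replicate 1 or Snai1 replicate 2 (adjusted p = 0.0588, 0.0599 and 0.0534). The constitutive Hsp70 gene Hspa8, at 1506, 1354 and 1323 against 1299, 1237 and 1292 CPM, did not pass (log2 fold change −0.13, SE 0.064, adjusted p = 0.353), nor did the cytosolic Hsp90 gene Hsp90aa1 (log2 fold change −0.04, SE 0.06, adjusted p = 0.823) or the Hsp110 gene Hsph1 (log2 fold change 0.23, SE 0.077, adjusted p = 0.156). The partner of Hspe1 in its folding chamber, Hspd1, did not pass either, at 1143, 1155 and 1196 against 1033, 1028 and 1017 CPM (log2 fold change −0.18, SE 0.052, adjusted p = 0.103, 46.9% unique), but was called lower without control replicate 1 (−0.20, adjusted p = 0.00219).

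**Figure D2:**
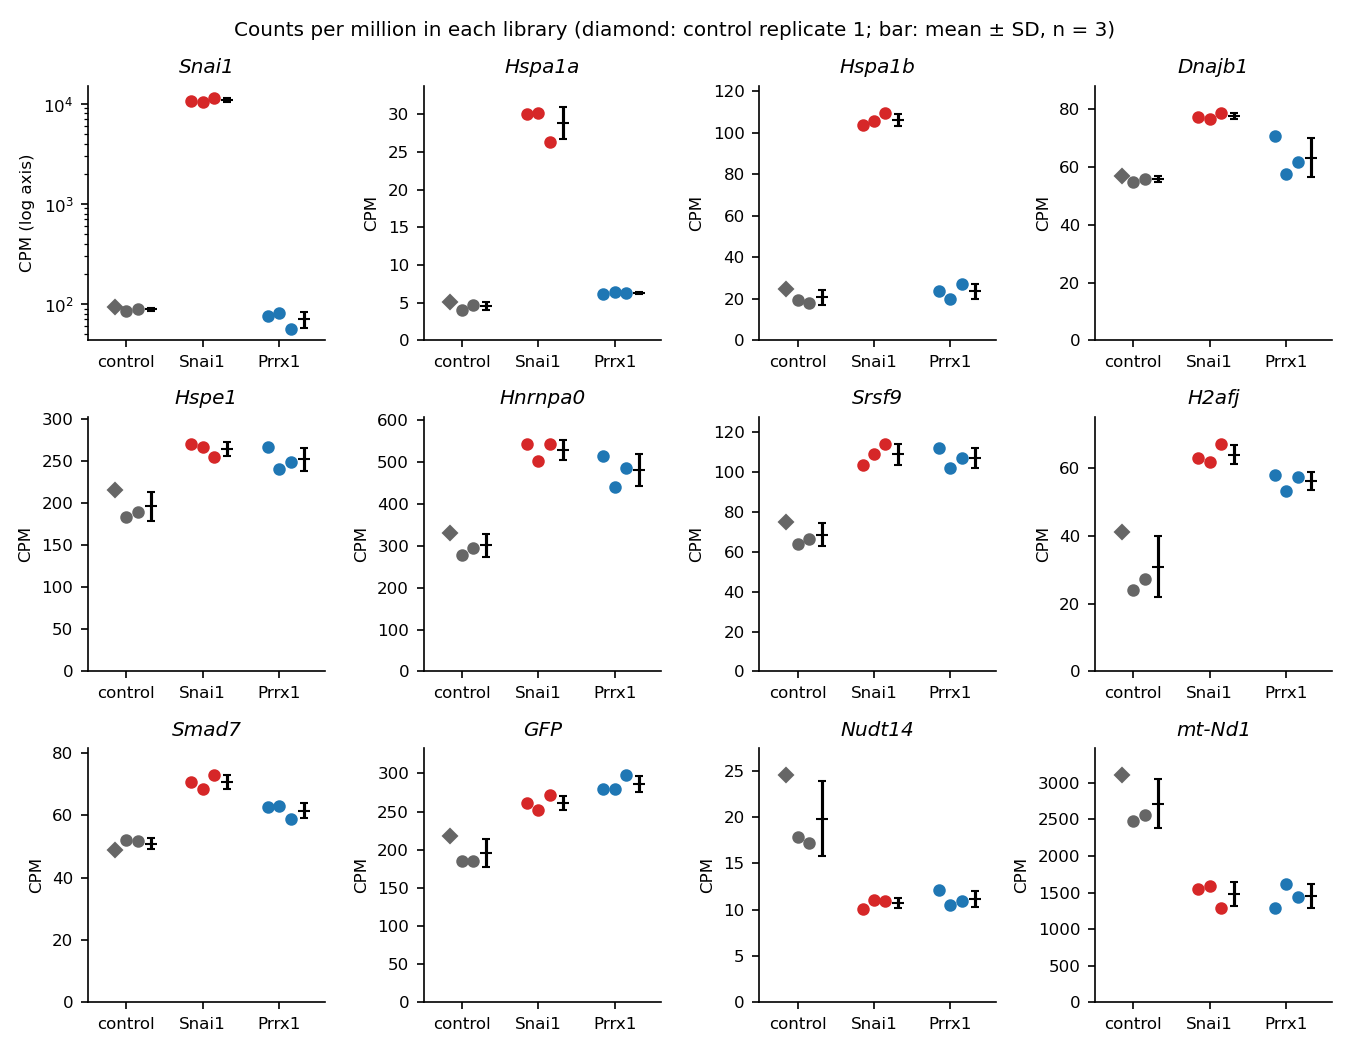
CPM (vertical axes, from 0 except for Snai1, which has a log axis) of 12 genes in the control, Snai1 and Prrx1 libraries. Each point is 1 library, the diamond is control replicate 1 and the bars are means with SD (n = 3). Hspa1a and Hspa1b are high in the Snai1 libraries alone, whereas Hnrnpa0, Srsf9, H2afj, Nudt14 and mt-Nd1 lie close together in Snai1 and Prrx1 and apart from control.

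Other rises named by size included genes of RNA handling, chromatin and mitochondria. H2afj, a replication-independent histone H2A variant, went from 41, 24 and 27.3 to 63, 61.7 and 66.9 CPM (log2 fold change 1.06, SE 0.15, adjusted p = 0.0071). Hnrnpa0, an RNA-binding protein that holds on to AU-rich messages, went from 331, 277 and 294 to 542, 502 and 542 CPM (log2 fold change 0.81, SE 0.078, adjusted p = 0.000156). Neither gene overlapped between groups, each kept its call without each library in turn, and control replicate 1 was the highest of the controls in both. Prss22, a serine protease, rose from 3.34, 2.95 and 3.25 to 5.45, 6.41 and 6.19 CPM (0.92 on the log2 scale), and Nutf2, which carries Ran into the nucleus, from 13.3, 9.98 and 16 to 26.6, 25.3 and 21.2 CPM (0.89, 56.4% unique). Timm13, an import chaperone of the mitochondrial intermembrane space, rose by 0.81 and Ndufs6, a subunit of complex I, by 0.76. The calls of these 4 genes were kept in 2 of 6, 5 of 6, 3 of 6 and 1 of 6 fits that left out 1 library, with adjusted p up to 0.09, 0.0584, 0.0826 and 0.102.

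By gene group, 12 of 81 cytosolic ribosomal protein genes rose, 2 fell and 67 did not pass (median 0.18). With the length and GC correction the balance turned, to 16 higher and 21 lower (median 0.04). The rises included Rps16 (0.65, 60.9% unique) and Fau (0.60, 66.1% unique), which makes a ribosomal protein fused to a ubiquitin-like protein. The list did not move as 1 block, since Rps24 (764, 709.7 and 701 against 511, 522 and 471 CPM, log2 fold change −0.53, SE 0.061, adjusted p = 0.000657) and Rpl15 (−0.32, 73.4% unique) fell. In the nuclear-encoded respiratory chain, 7 of 48 genes rose, 0 fell and 41 did not pass (median 0.12), and with that correction 10 were higher and 2 lower (median 0.05). Examples besides Ndufs6 are Cox5b (0.65, 83.9% unique) and Cox6a1 (0.45, 81.5% unique), subunits of cytochrome oxidase, and Ndufa8 (0.59), of complex I. Among the hnRNP and SR proteins, which package and splice pre-mRNA, 4 of 38 rose, 0 fell and 34 did not pass (median 0.07): Hnrnpa0, the splicing factor Srsf9 (75.1, 64.1 and 66.5 against 103, 109 and 114 CPM, log2 fold change 0.67, SE 0.074, adjusted p = 0.000558, edgeR), Hnrnpab (0.36, 72% unique) and Hnrnpd (0.29). H2afj was the one called histone gene of 24 tested. Srsf9 kept its call in all 6 fits that left out 1 library, Cox5b in 3 of 6, Fau in 2 of 6, and Rps16, Cox6a1, Ndufa8, Hnrnpab and Hnrnpd in 1 of 6, the one without control replicate 1. With the limma test on log2(TPM + 1), Hnrnpd had the other sign (−0.035).

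The Sm and LSm genes, whose proteins form rings around the small nuclear RNAs of the spliceosome, were grouped after their values had been seen. Of 25 tested, 6 rose and 1 fell, with a median of 0.04. Without control replicate 1 the counts were 11 and 1, and with the length and GC correction 8 and 4. Over all tested genes, 1.14% rose and 0.481% fell with all 3 controls and no correction. These shares were 12.4% and 10.4% without control replicate 1, and 2.74% and 2.56% with the correction. Snrpd2 went from 93, 65.1 and 66.9 to 115, 112 and 118 CPM (log2 fold change 0.62, SE 0.11, adjusted p = 0.0138) and Lsm4 from 24.1, 14.8 and 16 to 28.7, 28.4 and 32.2 CPM (log2 fold change 0.71, SE 0.15, adjusted p = 0.0332). Snrpf rose by 0.72, with 24.6% of its 31-base words unique, and kept its call in all 6 fits that left out 1 library. Snrpd2 kept it in 2 of 6 and Lsm4 in 1 of 6.

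The largest falls that met the naming rule were those of the mitochondrial genome, which gave 12 of the 51 protein-coding genes called lower and 9 of the 10 named by size. Of the 13 mitochondrially encoded protein genes, all subunits of the respiratory chain or the ATP synthase, 12 fell, 0 rose and 1 did not pass (median −0.86). With the length and GC correction 10 fell (median −0.82). With that correction and without control replicate 1, 7 fell and 6 did not pass (median −0.68). mt-Nd1, of complex I (chromosome M, 2751 to 3707, plus strand), went from 3104, 2479.8 and 2565 to 1544, 1597 and 1291 CPM (log2 fold change −0.88, SE 0.11, adjusted p = 0.00145, all of its 31-base words unique). mt-Nd3 went from 186, 161 and 183 to 98.7, 83.7 and 74.4 CPM (log2 fold change −1.05, SE 0.10, adjusted p = 0.000175, 1.89% unique). Control and Snai1 libraries did not overlap in either. mt-Co2 (−0.97), of cytochrome oxidase, mt-Cytb (−0.81), of complex III, mt-Atp6 (−0.88), of the ATP synthase, and mt-Nd2 (−0.86), mt-Nd4 (−0.81), mt-Nd5 (−0.86) and mt-Nd6 (−0.97), of complex I, fell as well. Of these, mt-Co2 has 0%, mt-Atp6 0.461%, mt-Nd4 37.2%, mt-Nd5 83.2% and mt-Nd2 86.5% unique words, so that their single values are uncertain. The one that did not pass, mt-Co1, had −0.72 (adjusted p = 0.0814). mt-Nd1, mt-Nd2, mt-Nd3 and mt-Atp6 kept their calls in all 6 fits that left out 1 library, mt-Co2 in 2 of 6, mt-Nd6 in 4 of 6, mt-Nd5 in 5 of 6 and mt-Cytb in 3 of 6, and mt-Nd4 in 0 of 6, with adjusted p up to 0.119.

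Together these genes took 2.48, 2.05 and 2.09% of the gene counts in the control libraries and 1.29, 1.36 and 1.07% in the Snai1 libraries, a difference of −0.966 percentage points between the means. The exact two-sided permutation p was 0.1, the smallest that 3 against 3 libraries can give. The Prrx1 libraries held 1.09, 1.5 and 1.16%, within the span of the Snai1 libraries or close to it. The control plasmid libraries of the other experiments lay on both sides of the controls shared by Snai1 and Prrx1, at 1.47, 1.38 and 1.45% in those shared by Egr1 and Jun and 2.96, 2.94 and 3.25% in those of Srebf2. The share therefore differed between sets of control libraries by as much as between Snai1 and its controls, and whether this was set by the plasmid or by the making of the libraries cannot be told apart here.

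**Figure D3:**
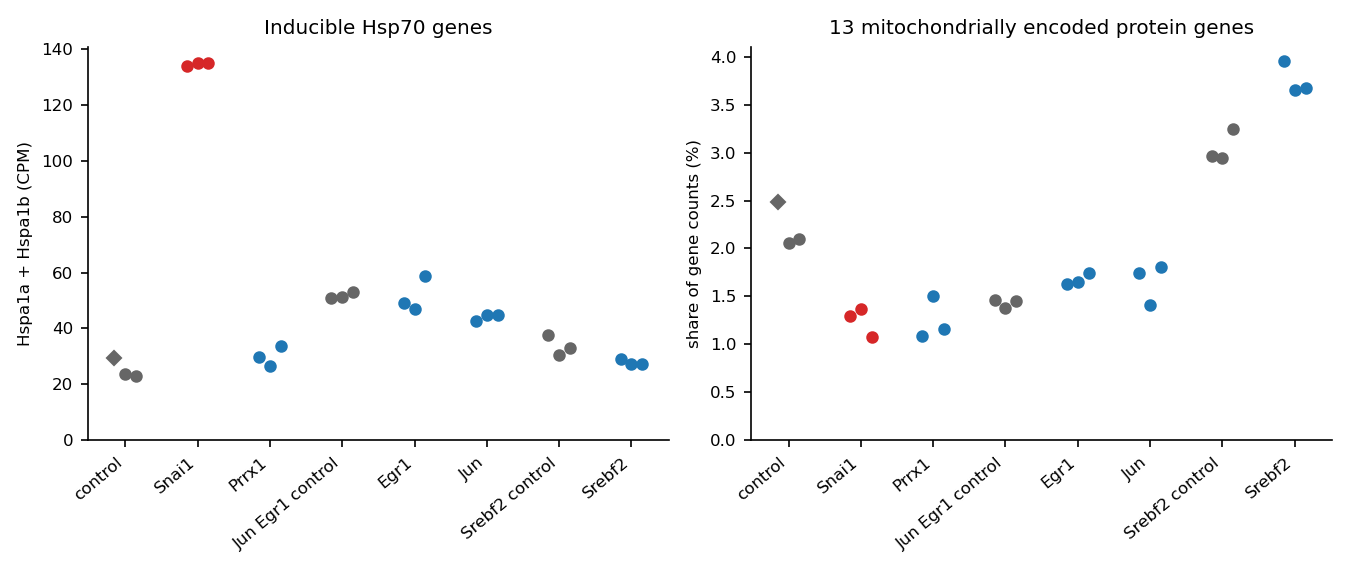
Summed Hspa1a and Hspa1b level (left, unscaled CPM) and share of gene counts from the 13 mitochondrially encoded protein genes (right, %) in each of 24 transfection libraries; grey points are control plasmids, red Snai1, blue other factors, and the diamond is control replicate 1. The Snai1 libraries stand above all others for Hspa1a and Hspa1b, whereas for the mitochondrial share they lie with Prrx1, below their own controls and near the controls of Egr1 and Jun.

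Among nuclear genes Nudt14, a hydrolase of UDP-glucose, had the largest fall that met the naming rule. It went from 24.5, 17.8 and 17.1 to 10.1, 11.1 and 10.9 CPM (log2 fold change −0.89, SE 0.13, adjusted p = 0.0058, edgeR), without overlap and in all 6 fits that left out 1 library. The window around its start (chr12:112942093-112942392, minus strand) is shown as that of a gene that fell, with its CAGGTG in capitals, 64 bases before the start.
Nudt14: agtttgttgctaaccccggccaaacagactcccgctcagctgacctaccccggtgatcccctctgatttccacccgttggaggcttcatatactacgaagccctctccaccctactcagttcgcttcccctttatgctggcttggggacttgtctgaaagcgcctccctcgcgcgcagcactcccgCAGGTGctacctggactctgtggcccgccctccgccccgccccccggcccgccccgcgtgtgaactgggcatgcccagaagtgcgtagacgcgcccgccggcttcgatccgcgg
CAGGTG or CACCTG was found in 12.1% of the 33 windows of genes that fell (28 of 63 symbols matched), 16.9% of the 118 windows of genes that rose (104 of 149 matched) and 17.1% of the windows of all tested genes. GAANNTTC was found in 3.03%, 5.08% and 5.92%. The window of Cdc42, which also fell, holds neither CAGGTG nor CACCTG. A window of Dnajb1, which rose, holds CACCTG 181 bases before the start. Tpt1, the translationally controlled tumour protein, fell from 1884, 1769 and 1749.9 to 1332, 1321 and 1233 CPM (log2 fold change −0.48, SE 0.058, adjusted p = 0.00115, 80.2% unique) and the small GTPase gene Cdc42 from 232, 241 and 229.6 to 189, 195 and 189 CPM (log2 fold change −0.29, SE 0.052, adjusted p = 0.0143). Both were picked after their values were seen. Tpt1 kept its call in 6 of 6 fits that left out 1 library and Cdc42 in 1. Ube2c, the ubiquitin-conjugating enzyme of the anaphase-promoting complex, was the one called gene of 48 cell cycle genes (−0.31, 75% unique, call kept in 1 of 6 fits that left out 1 library).

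None of the listed epithelial and mesenchymal genes that are tied to Snai1 passed the test with all 3 controls. Of 36 listed epithelial junction and keratin genes, 13 were expressed enough to be tested, and edgeR called 0 of them (0 up and 0 down at unadjusted p under 0.05, with DESeq2 calling 0 up and 0 down, and edgeR 0 up and 2 down without control replicate 1; median −0.06). E-cadherin (Cdh1) was at 0.0521, 0 and 0.0478 CPM in control and 0, 0.111 and 0 CPM in Snai1 libraries, and Epcam, Cldn1 and Cldn4 had 0 counts in all 6. Among those with a level, Tjp1, the scaffold ZO-1, stood at 115, 167 and 167 against 139, 149 and 151 CPM (without control replicate 1 −0.19, adjusted p = 0.00645, called lower with Mpp5, −0.28, adjusted p = 0.00864). Jup, plakoglobin, stood at 61, 51.5 and 55.2 against 50.1, 48.1 and 53.8 CPM (−0.14, adjusted p = 0.42; with the length and GC correction −0.21, adjusted p = 0.0462). Of 28 tested mesenchymal genes reported to rise with Snai1, edgeR called 0 (1 up and 0 down at unadjusted p under 0.05, with DESeq2 calling 0 up and 0 down, and edgeR 1 up and 1 down without control replicate 1; median −0.02). Fibronectin (Fn1) was at 7583, 9531 and 9028 against 8294, 9672 and 9213 CPM. N-cadherin (Cdh2) was at 181, 206 and 211 against 197, 197 and 200.2 CPM and vimentin (Vim) was at 3401, 3144 and 3217 against 3127, 3133 and 3165 CPM. Without control replicate 1, Loxl3, a lysyl oxidase gene, was called higher (0.31, adjusted p = 0.00037) and Itgb1, integrin beta, lower (−0.15, adjusted p = 0.0229). Fn1, Cdh2 and Vim were abundant in both groups, and their ranges overlapped.

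No other transition factor passed the test with all 3 controls. Of 11 tested in the list, Snai1 alone was called. Its relative Snai2 was at 14.4, 19.7 and 19 against 13.1, 15.2 and 15.8 CPM (log2 fold change −0.27, SE 0.12, adjusted p = 0.303). Zeb1 was at 91.8, 119 and 114 against 92.1, 101 and 91.9 CPM (log2 fold change −0.19, SE 0.087, adjusted p = 0.303). Zeb2 was at 57.3, 73.8 and 68.8 against 55, 56.8 and 54.3 CPM (log2 fold change −0.27, SE 0.088, adjusted p = 0.144) and Twist1 was at 44.6, 37.5 and 41.6 against 45.2, 44.2 and 46.2 CPM (log2 fold change 0.13, SE 0.08, adjusted p = 0.449). Without control replicate 1, Snai2 (−0.40, adjusted p = 0.00798), Zeb1 (−0.29, 0.000483) and Zeb2 (−0.37, 0.000229) were called lower, as was Tcf4 (−0.26, adjusted p = 0.00097), while Foxc2 (0.33, adjusted p = 0.0182) and Tcf3 (0.15, adjusted p = 0.0266) were called higher besides Snai1. With the length and GC correction in addition, Snai2 (−0.33, adjusted p = 0.0542), Zeb2 (−0.18, adjusted p = 0.0619) and Zeb1 (−0.14, adjusted p = 0.0997) did not pass. In that setting 1 of the 11 tested members of the list was still called lower and 1 higher. With the correction and all 3 controls Zeb2 was called lower (−0.19, adjusted p = 0.0499). Neither the 24 corepressor and chromatin genes (5 up and 2 down at unadjusted p under 0.05, with DESeq2 calling 1 up and 0 down, and edgeR 4 up and 6 down without control replicate 1) nor the 24 regulators of the stability and location of the Snai1 protein (1 up and 1 down at unadjusted p under 0.05, with DESeq2 calling 0 up and 0 down, and edgeR 0 up and 6 down without control replicate 1) held a gene called by edgeR. Over all tested genes, edgeR called 12.4% higher and 10.4% lower without control replicate 1.

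In the TGF-beta and BMP list, 1 of 24 tested genes rose and 23 did not pass (median −0.02). The one was Smad7, the inhibitory Smad that TGF-beta signalling induces as its own brake, at 48.7, 52 and 51.8 CPM in control and 70.5, 68.5 and 72.8 CPM in Snai1 libraries (log2 fold change 0.47, SE 0.064, adjusted p = 0.00252, edgeR). Its groups did not overlap, all of its 31-base words are unique, and the call held without each library in turn and with the length and GC correction (adjusted p = 0.000157). In Prrx1 libraries Smad7 stood at 62.6, 63 and 58.7 CPM, between the groups. Of 32 tested Hedgehog targets and pathway components, edgeR called 0 (2 up and 0 down at unadjusted p under 0.05, with DESeq2 calling 0 up and 0 down, and edgeR 3 up and 2 down without control replicate 1; median −0.01). The target Gli1 was at 6.05, 6.7 and 5.45 against 4.74, 8.91 and 5.73 CPM. The receptor and target Ptch1 was at 16.5, 25.7 and 25.4 against 23.5, 24.4 and 24.1 CPM, with overlapping groups in both. Stress genes of other kinds rose in small numbers: 2 of 28 p53 targets, 2 of 35 genes of the integrated stress and unfolded protein response, and 1 of 32 interferon response genes, with 0 called lower in each of the 3 lists. The stress response list was mixed under other settings, with 6 up and 8 down at unadjusted p under 0.05, 5 and 3 by DESeq2, 6 and 6 without control replicate 1, and 3 and 6 with the length and GC correction. The p53 list had 9 up and 1 down, and the interferon list 10 and 0, at unadjusted p under 0.05. With the length and GC correction the p53 list had 5 higher and 0 lower, and the interferon list 3 and 0. The median of the interferon list was 0.23, and 0.19 with the correction, against 0.04 and 0.10 for the p53 list. The called genes were Ddit4, an mTOR restraint that stands in the first 2 lists (88.8, 83.1 and 86.5 against 114, 120.5 and 114 CPM, 0.43), Phlda3, an Akt repressor (0.55), Sdf2l1, a cochaperone of the endoplasmic reticulum (0.46), and Ifi27 (0.69). None of these 4 calls held in more than 2 of the 6 fits that left out 1 library. Adjusted p reached 0.0765, 0.171, 0.177 and 0.203, without Snai1 replicate 2 for Ddit4, Snai1 replicate 3 for Phlda3 and Sdf2l1, and control replicate 2 for Ifi27.

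edgeR called 0 genes in the list of NF-kB and inflammatory genes (25 tested; 2 up and 0 down at unadjusted p under 0.05, with DESeq2 calling 0 up and 0 down, and edgeR 1 up and 1 down without control replicate 1). It called 0 of the immediate early genes (32 tested; 5 up and 2 down at unadjusted p under 0.05, with DESeq2 calling 2 up and 0 down, and edgeR 4 up and 2 down without control replicate 1), and 0 of the extracellular matrix genes (40 tested; 1 up and 4 down at unadjusted p under 0.05, with DESeq2 calling 0 up and 3 down, and edgeR 0 up and 6 down without control replicate 1). It called 0 of the genes of cholesterol synthesis and uptake (24 tested; 1 up and 3 down at unadjusted p under 0.05, with DESeq2 calling 0 up and 3 down, and edgeR 2 up and 7 down without control replicate 1). Shares over all tested genes without control replicate 1 were 12.4% up and 10.4% down. Of 30 tested genes of mitochondrial transcription, ribosome and RNA handling, the mitochondrial ribosomal protein gene Mrps12 rose (0.50, call kept in 1 of 6 fits that left out 1 library) and 0 fell.

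**Figure D4:**
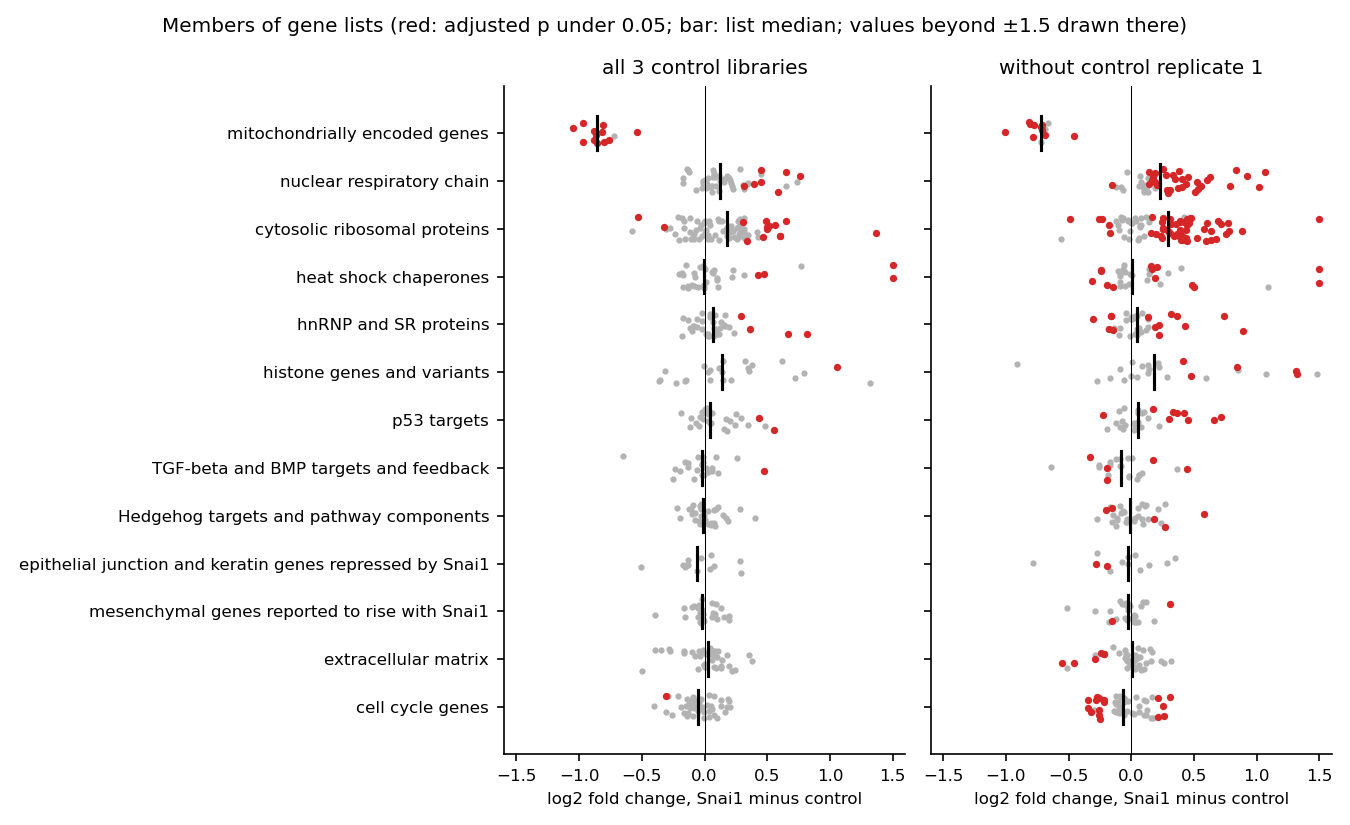
Log2 fold change of Snai1 minus control (horizontal axes) for the tested members of 13 gene lists, with all 3 controls (left) and without control replicate 1 (right); each point is a gene, red points passed an adjusted p of 0.05 and black bars are list medians. Mitochondrially encoded genes lie left of 0 in both panels, at medians of −0.86 and −0.72, and the epithelial, mesenchymal and Hedgehog lists centre on 0.

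Leaving out control replicate 1 multiplied the calls. Of 13400 genes tested, 3062 were called, 22.9% (1666 higher, 12.4%, and 1396 lower, 10.4%). They include 210 of the 212 genes called with all libraries, all 210 in the same direction. Most of these changes were small, with a median size of 0.28 on the log2 scale among all 3062 called genes. Nuclear respiratory chain genes then counted 31 higher and 1 lower of 48 (median 0.23), ribosomal protein genes 50 higher and 5 lower of 81 (median 0.29), and mitochondrially encoded genes 10 lower of 13 (median −0.72). Romo1, a small protein of the mitochondrial inner membrane, is an example of the added rises, at 30.9, 17.3 and 16.3 CPM in the controls and 37.8, 38 and 37.9 CPM with Snai1 (1.17 without control replicate 1, adjusted p = 1.3e-09, against 0.82 and 0.0669 with it). Tmem160, another mitochondrial membrane protein gene, had 26.9, 14.9 and 14.4 against 36, 35 and 35.6 CPM (1.28 without it, adjusted p = 5.71e-09). In both genes control replicate 1 lay between the other controls and the Snai1 libraries. Among the added falls were Zfp748, a zinc finger gene (6.62, 10.2 and 10 against 5.5, 6.07 and 5.89 CPM, −0.80 without control replicate 1, adjusted p = 0.000596), and Spin4 (2.61, 6.13 and 5.16 against 2.67, 3.34 and 3.36 CPM, −0.85, adjusted p = 0.00322).

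Control replicate 1 differed from the other controls by transcript length. It was low in genes with long transcripts, such as the copper transporter gene Atp7a (8.08 against 21.9 and 22.5 CPM in replicates 2 and 3), the kinase gene Hipk2 (33.1 against 93.6 and 82.6 CPM), Fam199x (12.2 against 31.7 and 27.4 CPM), Scai (13.4 against 30.9 and 29.1 CPM) and Pdpr (11.6 against 29.4 and 22 CPM). Leaving it out turned the direction of Hipk2 and Pdpr, from 0.11 and 0.01 to −0.23 and −0.28. Among protein-coding genes with at least 20 CPM in which it lay outside the range of the other 5 libraries, those with the highest ratio were Pcdhgc4, a clustered protocadherin (74.9 against 0.808 and 0.43 CPM, 62.6% unique), Cdk20 (21 against 10.9 and 13.7 CPM), the RNA polymerase subunit gene Polr2l (24 against 14.2 and 15.2 CPM), the lysosomal peptidase gene Dpp7 (66.6 against 41.4 and 40.7 CPM) and Clba1 (22.4 against 14.4 and 12.5 CPM). The median log2 ratio of control replicate 1 to controls 2 and 3 was 0.239 over 533 genes with transcripts under 750 bases and −0.354 over 1289 genes with transcripts over 6000 bases.

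The Snai1 libraries differed from controls 2 and 3 along the same axis. Their median log2 fold change was 0.209 in the shortest class and −0.109 in the longest, with 164 of 533 short genes called higher and 38 lower, and 35 of 1289 long genes higher and 298 lower. With all 3 controls the 149 genes that rose had a median transcript length of 1109 bases and a median GC content of 54.9%, the 63 that fell 1146 bases and 44%, and all tested genes 2803 bases and 50.1%. Against Prrx1 the medians were 0.011 and −0.022 in the shortest and longest classes. A correction for length and GC content, fitted within each library, brought the 3062 calls without control replicate 1 to 1071 (7.99%, 4.39% higher and 3.6% lower), of which 705 were among the 3062 and 701 had the same direction. Ribosomal protein genes were then 21 higher and 22 lower, and respiratory chain genes 13 higher and 2 lower, with medians of 0.04 and 0.06. Of the 212 genes called with all libraries, 180 remained among the 694 called with the correction, Hspa1a, Hspa1b, Hnrnpa0, H2afj, Srsf9, Smad7 and Nudt14 among them.

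**Figure D5:**
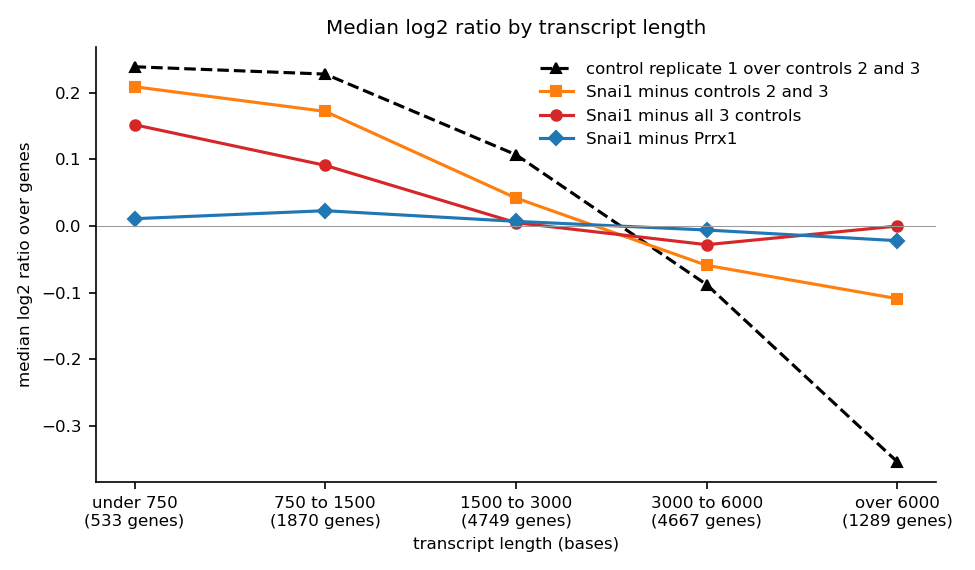
Median log2 ratio over genes (vertical axis) in 5 classes of transcript length (horizontal axis, bases) for control replicate 1 over controls 2 and 3, Snai1 over controls 2 and 3, Snai1 over all 3 controls, and Snai1 over Prrx1. Control replicate 1 and the Snai1 libraries both fall with length relative to controls 2 and 3, from 0.239 to −0.354 and from 0.209 to −0.109, whereas Snai1 over Prrx1 stays between −0.022 and 0.023.

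Setting Snai1 directly against Prrx1, another factor delivered by plasmid, left few differences. Of 13110 tested genes, 33 were called (0.252%), 4 higher with Snai1 (0.0305%) and 29 lower (0.221%). The count was 11 without Snai1 replicate 3, 14 without Prrx1 replicate 3 and 18 to 20 without each of the other 4 libraries. Those higher were Snai1, Hspa1a (2.20 on the log2 scale, adjusted p = 1.37e-07), Hspa1b (2.16, adjusted p = 3.66e-07) and the ribosomal protein pseudogene Rpl19-ps11. The falls named by rule were those of Prrx1 itself (547, 542 and 527 against 14279, 14187 and 18778 CPM) and the adhesion gene Sdk2 (0.403, 0.223 and 0.671 against 9.22, 10.3 and 11 CPM). The others were the ATP-gated channel gene P2rx7 (4.29, 5.96 and 4.49 against 16.1, 19.6 and 24.6 CPM), the activity-regulated gene Arc (2.42, 2.01 and 1.91 against 4.55, 4.89 and 5.58 CPM) and the neuropeptide precursor gene Vgf (4.89, 5.57 and 6.76 against 10.8, 9.4 and 13.5 CPM). In each of these 5 all control libraries lay below all Prrx1 libraries, at 472, 618 and 625, 0.417, 0.428 and 0.621, 5.89, 4.61 and 5.02, 3.02, 2.9 and 2.87 and 5, 4.04 and 4.25 CPM.

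Of the 212 genes that differed between Snai1 and control, 5 also differed between Snai1 and Prrx1, a contrast that uses the same Snai1 libraries. They were Snai1, Hspa1a, Hspa1b, Aloxe3 and Gm20716. Aloxe3, an epidermal lipoxygenase gene near the detection limit, stood at 2.03, 1.62 and 1.82 CPM in control, 0.454, 0.78 and 0.671 CPM in Snai1 and 3.15, 2.67 and 3.86 CPM in Prrx1 libraries. Gm20716, a predicted gene with 0.513% unique words, stood at 61.3, 62.5 and 76.3, 50.5, 42.9 and 40.1 and 68.2, 73.4 and 68 CPM. For the other 207 genes, a difference from Prrx1 was not detectable with 3 libraries a side. Hnrnpa0, for one, stood at 515, 439.6 and 486 CPM in the Prrx1 libraries (0.14, adjusted p = 0.97), Nudt14 at 12.1, 10.5 and 11 CPM (−0.06, 0.997) and mt-Nd1 at 1293, 1619 and 1436 CPM (0.03, 0.997). The labels record no batch, and a response to either factor plasmid and a difference in how the control libraries were made cannot be told apart for these genes.

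The 6 control plasmid libraries of the other 2 transfection experiments gave another reference, with the limit that they were made in other experiments. Of the 149 genes that rose, 92 had all 3 Snai1 libraries above all 6 (61.7%, against 10.3% of all tested genes), and of the 63 that fell, 22 had all 3 below all 6 (34.9%, against 10.3%). The called genes were picked by the values of these same Snai1 libraries. A share above that of all genes is therefore built in and is no independent support for the calls. Hnrnpa0, at an unscaled 336 to 408 CPM in those 6, was below all 3 Snai1 libraries there too. Srsf9, at 72.7 to 87.7 CPM, and Smad7, at 33.4 to 47.9 CPM, were as well. Nudt14, at 18.5 to 24.3 CPM, was above all 3. Other called rises did not hold against these controls. Ifi27 stood at 67.9 to 73.2 CPM in the Srebf2 controls, above the Snai1 libraries at 45.6 to 56.9 CPM (all unscaled). Phlda3 did so as well, at 150 to 162 against 132 to 142 CPM.

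At the level of transcripts, 313 of 40441 were called (0.774%), 183 higher (0.453%) and 130 lower (0.321%), from 278 genes. The count was 1377 without control replicate 1 (3.18%, 1.99% higher and 1.19% lower), and 83 to 175 without each of the other 5 libraries, lowest without Snai1 replicate 3 and 108, 113 and 153 without Snai1 replicate 1, Snai1 replicate 2 and control replicate 3. Only 60 of those genes were called as genes, and in 24 genes transcripts were called in opposite directions. Counts of near-identical forms of a gene are estimates, and their split is uncertain, so the sizes below are those of the estimates. Actg1, cytoplasmic gamma-actin, is one: Actg1-204 had 0 counts in all 3 controls and 645, 867 and 918 CPM in the Snai1 libraries, at least 16240.0-fold higher against a floor of 3 counts over the group, while Actg1-202 went from 2987, 2819.8 and 2903 to 1894, 1827 and 1754 CPM. Hnrnpl, a splicing regulator, is another, with Hnrnpl-202 at 102, 119 and 112 CPM in control and 0 in all 3 Snai1 libraries, at least 2076-fold lower, and Hnrnpl-201 at 205, 171 and 194 against 294, 292 and 292 CPM (log2 fold change 0.63, adjusted p = 0.00859, edgeR). In the tRNA synthetase gene Iars, Iars-202 went from 0 in all controls to 19.2, 25.9 and 23.6 CPM and Iars-201 from 203, 219 and 209 to 164, 166 and 163 CPM. Summed as genes, Actg1 (log2 fold change −0.11, adjusted p = 0.444), Hnrnpl (0.015, adjusted p = 0.933) and Iars (−0.12, adjusted p = 0.334) did not pass (edgeR). Whether their forms changed or only the split of counts between them was not tested. In Tpt1 the forms called lower were Tpt1-208 (71.3, 91.2 and 57.4 against 25.4, 30.2 and 18.8 CPM, log2 fold change −1.56, adjusted p = 0.0356) and Tpt1-201 (1071, 816 and 904 against 493, 457 and 446 CPM), and Tpt1-204 was at 819.9, 887 and 819.5 against 816, 833 and 772 CPM. For Hspa1a, Hspa1b, Snai1 and Hnrnpa0 the only transcripts with at least 2 CPM were Hspa1a-201, Hspa1b-201, Snai1-201 and Hnrnpa0-201. The rises of these transcripts repeat those of the genes and add no separate information.

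The remaining transcripts named by size were also present in 1 group and at 0 in the other. Rps12l1-201 (118, 143 and 121 CPM), Gm12918-201 (36.5, 21.2 and 66.6 CPM) and Gnb2-214 (19.7, 18.1 and 18.5 CPM) had 0 counts in all 3 controls. Cdc34-202 (8.82, 26.3 and 24.9 CPM in control), Fau-208 (17.3, 22.4 and 10.4 CPM), Homer3-201 (19.4, 17.5 and 11.7 CPM) and Celf1-205 (17.8, 10 and 15.8 CPM) had 0 in all 3 Snai1 libraries. The pattern ran through the files: 54 transcripts were at 0 in every library of control or of Snai1 and at 2 CPM or more in every library of the other, 49 did so between control and Prrx1, and 3 between Prrx1 and Snai1. The same count was 4 between Egr1 and its controls, 9 between Jun and the same controls, and 50 between Srebf2 and its controls. Actg1-204, for one, stood at 1097, 1190.2 and 1024 CPM in the Prrx1 libraries, 95 to 242 CPM in the controls of Egr1 and Jun, and 0 in the controls of Srebf2. Both factor groups share the same 3 controls, and an effect of a factor plasmid and a difference in the making of the libraries cannot be told apart here.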

How the data were processed

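Bulk mRNA sequencing libraries of 3 Snai1 transfections, 3 control plasmid transfections and 3 Prrx1 transfections were used. The authors quantified transcripts with kallisto 0.43.0 on mm10, per the submitters' processing notes, and deposited estimated counts and TPM for 118491 targets per library. Strand and read layout are not given in the sources used here. With GENCODE M21, 116816 targets matched a transcript, 1673 did not and were left out, and 2 were the added sequences GFP and mScarlet. The deposited estimated counts were summed over 36047 genes and rounded to whole numbers.

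Genes and transcripts were tested with edgeR 4.0.16 in R 4.3.3 (robust quasi-likelihood F test, TMM scaling, genes kept by filterByExpr at settings of 10 counts and 15 in total). The 9 libraries were fitted together without a replicate block. The threshold was an adjusted p of 0.05 (Benjamini-Hochberg over all features, two-sided). The prior count behind log2 fold changes was 0.125, and the SE was derived from the F statistic. Alternatives were DESeq2 1.42.0, limma 3.58.1 on log2(TPM + 1) at a mean TPM of at least 1, other scalings and filters, 6 libraries only, a replicate block and each library left out; the scripts were tested on simulated data. The share of a gene's 31-base words found in no other gene was computed from the annotated transcripts, and values under 90% are called uncertain. Length and GC content are count-weighted means over a gene's transcripts. Promoter sequences are from RefSeq (GRCm38.p6).

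The comparison, the gene lists and the rules were chosen with earlier results of these data known. The rule names Snai1, GFP and mScarlet, then the 10 rises and 10 falls of largest size among called protein-coding genes whose groups were apart, with a higher mean of 5 CPM or more and no predicted name, 8 and 8 without control replicate 1, 5 and 5 against Prrx1, 5 and 5 for control replicate 1, 5 and 5 transcripts with at least 2 CPM, and up to 4 called members per list. Neural, endothelial, immune, muscle and adipocyte markers had 15 tested members in all, none of them called by edgeR, DESeq2 or at an unadjusted p under 0.05; fibroblast markers had 12, none called by edgeR, 1 lower at an unadjusted p under 0.05 and 1 lower by DESeq2. Some genes that meet the rule are not reported here. Counting limits cover counting error only.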

Additional observations from a re-analysis of the deposited data

Results flagged for a closer look

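Among the 212 genes called against control, 4 besides Snai1 also differed from Prrx1 by the direct contrast (edgeR, Benjamini-Hochberg adjustment). The difference was 2.20 for Hspa1a (adjusted p = 1.37e-07) and 2.16 for Hspa1b (adjusted p = 3.66e-07), higher with Snai1 in 3 of 3 libraries. It was −2.34 for Aloxe3 (adjusted p = 0.00172) and −0.65 for Gm20716 (adjusted p = 0.0133), lower with Snai1 in 3 of 3 libraries. Groups of 3 libraries are too small for the check of single outlying libraries.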

How the results depend on the processing

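The 212 genes called against control became 543 with DESeq2, 440 without a filter, 360 with limma on log2(TPM + 1) and 64 with only the 6 libraries compared (56.2% higher, against 70.3%), and 46 to 3062 when 1 library was left out. Alternatives chosen after seeing the data gave 694 with the length and GC correction (51.7% higher), 1071 with it and without control replicate 1, and 3808 with 6 libraries less control replicate 1. The 33 genes against Prrx1 became 63 without a filter, 9 with the stricter filter, 74 with 6 libraries, 7 with limma, and 11 to 20 with 1 library left out. The 313 transcripts became 681 with the stricter filter, 139 with 6 libraries, and 83 to 1377 with 1 library left out. The cause of these shifts was not tested. The difference in mitochondrial share kept its sign in every alternative run, from −1.04 to −0.83 percentage points with 1 library left out. Same-numbered Snai1 and control replicates did not deviate together (r of −0.0431 to 0.0845), and a replicate block gave 290 genes against control, 29 against Prrx1 and 125 transcripts. For named genes called against control, 486 alternative values kept direction and call, 137 lost the call and 1 turned; Hnrnpd took −0.035 with limma. Of named genes not called, Ube2s had −0.27 with limma, and without control replicate 1 Dpp7 had 0.23, Hipk2 −0.23 and Pdpr −0.28, in the fit of 9 as of 6 libraries. With 1 library left out they ran from −0.16 to 0.23, −0.23 to 0.37 and −0.28 to 0.32.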
